A study of Mus musculus with 8 samples.

Results

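The 37 genes described here encode proteins of DNA replication, of entry into S phase and of mitosis. They were taken by gene symbol from the 41128 genes of the deposited count table, with earlier results of these data known. Of these, 14 act in replication, 3 in G1/S control and 20 in mitosis. The study deals with a super enhancer, a group of enhancers lying close together, that acts on the natriuretic peptide genes Nppa and Nppb. Total RNA of the left ventricle was sequenced from 4 FVB mice in which the regulatory element RE1 had been deleted with CRISPR and from 4 wild-type littermates. The deletion carriers are labelled HOM, read here as homozygous. All 8 mice carry the same age label, 8 to 12 weeks, and no treatment is named. Neither the sex of the mice nor the number of edited founder animals is given in the labels. The growth protocol also lists a Myh6-MerCreMer line and nuclear reporter lines, but no label of these 8 mice names such an allele.

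RE1 yields no gene count of its own, so the labels were checked on the genes beside it. Nppb, which encodes B-type natriuretic peptide, lay between 1840 and 4619 normalized counts in the wild-type libraries and between 1.04 and 11.01 in the RE1 knockout libraries. Nppa, which encodes atrial natriuretic peptide, lay between 327 and 628 in wild-type and between 4.16 and 9.63 in knockout. Total gene counts ran from 16778368 in knockout replicate 1 to 37133306 in knockout replicate 2. The 37 genes together received 1295 to 4220 reads per library, so several of them rest on few reads. In 16 of the 37 at least 1 library held under 10 reads. Normalized counts are the authors' own, each library's raw counts having been scaled by its size factor, and they are given below in the order of replicates 1 to 4.

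A cell that commits to division switches on E2F transcription factors, which raise the genes for the origin-loading factors, the Mcm ring helicase and the enzymes that supply deoxynucleotides. Later, in G2 and M phase, another set of genes comes on for the mitotic cyclins, the kinases and motors of the spindle and the kinetochore proteins. Many of these late genes carry a short promoter element called the cell cycle genes homology region (CHR), often beside CCAAT boxes bound by NF-Y, and are held down in resting cells by the DREAM complex. Most cardiomyocytes of the adult mouse heart no longer divide, whereas its endothelial cells, fibroblasts and immune cells can. In RNA from a whole piece of ventricle, fewer cycling cells and less RNA per cell cannot be told apart.

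Cell cycle transcripts were on the whole measured lower in RE1 knockout ventricles than in wild-type ventricles, but no single gene of the 37 passed the test across the genome. Of the 37 genes, 33 had enough counts to be tested. Gins2, Ccnb2, Bub1 and Plk1 did not. At an adjusted p of 0.05 in edgeR's quasi-likelihood test, 0 of the 33 were called, against 0.508% of all 16551 tested genes that were called lower and 0.278% that were called higher, 0.785% in all. At an unadjusted p under 0.05, 10 of the 33 were lower and 0 higher, beside 7.01% and 6.14% of all tested genes (13.1% in either direction). The wild-type and knockout libraries did not overlap for 5 genes, Mcm3, Mcm6, Ccna2, Cenpf and Top2a, all lower in knockout. Across all tested genes, 3.83% did not overlap in that direction and 3.32% in the other. DESeq2 called 3 of the genes lower, Mcm6, Top2a and Mki67, where it called 1.1% of 16256 genes lower. With limma-voom, 0 were called. A robust form of the edgeR fit, chosen after seeing the data, called Mcm6 alone (adjusted p = 0.0416), beside 0.689% of genes called lower.

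In a fit without the low-count filter, which covers all 37 genes, 34 had a negative log2 fold change (knockout over wild-type) and the median was −0.37. The same fit gave a median of −0.0024 and 50.49% negative values over 28347 genes. Among the 14 replication genes 13 were negative with a median of −0.23, and among the 20 mitotic genes 19 were negative with a median of −0.40. Over the tested genes alone the medians were −0.21 for 13 replication genes and −0.40 for 17 mitotic genes. These medians are descriptions with no test. The mitotic median moved by over 1.5 times in 2 alternatives, to −0.63 without knockout replicate 3 and to −0.64 with the share of mitochondrial rRNA as a covariate.

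**Figure D1:**
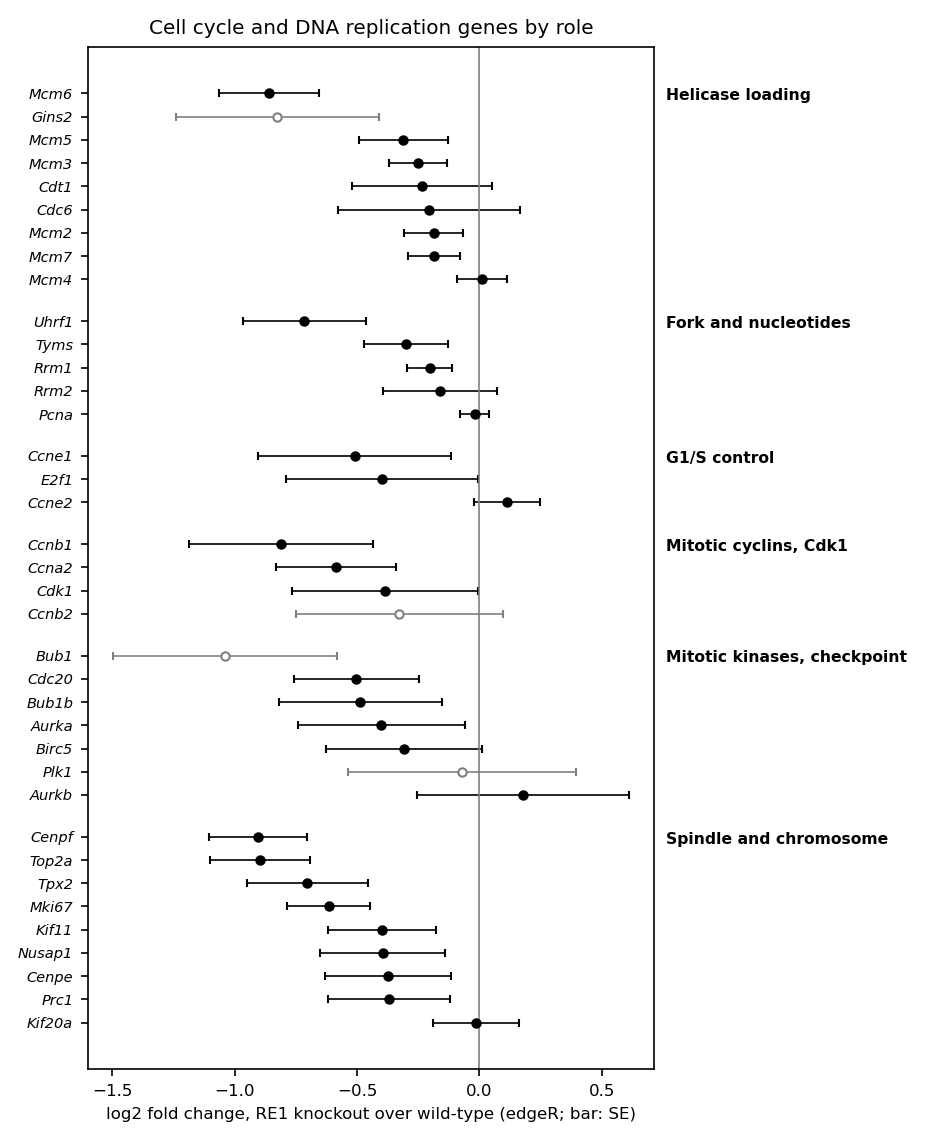
Log2 fold change of each of the 37 genes (x axis, RE1 knockout over wild-type, edgeR) with its standard error, grouped by role. Open grey points are the 4 genes that were not tested, from the fit without a low-count filter; 34 of the 37 points lie below 0, with Cenpf at −0.91, Top2a at −0.90 and Mcm6 at −0.86 the lowest of the tested genes.

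The promoters of Mcm6, Cenpf, Top2a and Mki67 are shown because these 4 genes had the smallest p-values of the 33 tested, and because they set a replication promoter beside mitotic ones. Each window runs from 250 bases before to 50 bases after the gene's start in RefSeq (build GRCm38.p6) and is printed 5′ to 3′ along the gene. In Mcm6, capitals mark matches to 4 E2F words, searched on both strands: TTCCCGC is the first, TTGGCGC the next, TTCGCGC another and TTGCCGC the last. It held 5 such matches, and neighbouring matches overlapped within TTGGCGCGAA. In the mitotic genes, capitals mark the CHR word TTTGAA and the CCAAT box, again on both strands.
Mcm6, chr1:128359656-128359955, minus strand: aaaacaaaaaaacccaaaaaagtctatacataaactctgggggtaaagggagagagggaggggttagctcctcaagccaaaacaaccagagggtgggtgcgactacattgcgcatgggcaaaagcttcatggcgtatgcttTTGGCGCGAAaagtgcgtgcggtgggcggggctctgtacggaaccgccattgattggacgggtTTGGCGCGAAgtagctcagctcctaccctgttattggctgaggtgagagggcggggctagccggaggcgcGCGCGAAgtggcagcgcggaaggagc
Cenpf, chr1:189688037-189688336, minus strand: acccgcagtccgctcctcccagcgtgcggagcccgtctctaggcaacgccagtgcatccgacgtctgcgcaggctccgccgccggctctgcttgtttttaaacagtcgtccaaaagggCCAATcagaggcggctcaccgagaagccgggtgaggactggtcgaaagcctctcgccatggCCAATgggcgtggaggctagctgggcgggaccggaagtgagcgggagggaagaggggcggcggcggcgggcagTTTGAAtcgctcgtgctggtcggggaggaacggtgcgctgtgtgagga
Top2a, chr11:99024140-99024439, minus strand: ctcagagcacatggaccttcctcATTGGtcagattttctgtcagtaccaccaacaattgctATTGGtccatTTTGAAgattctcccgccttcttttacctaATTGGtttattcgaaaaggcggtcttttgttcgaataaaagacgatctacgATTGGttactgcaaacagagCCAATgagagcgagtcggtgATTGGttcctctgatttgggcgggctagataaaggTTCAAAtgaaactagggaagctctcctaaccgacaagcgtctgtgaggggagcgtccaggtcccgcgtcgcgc
Mki67, chr7:135716330-135716629, minus strand: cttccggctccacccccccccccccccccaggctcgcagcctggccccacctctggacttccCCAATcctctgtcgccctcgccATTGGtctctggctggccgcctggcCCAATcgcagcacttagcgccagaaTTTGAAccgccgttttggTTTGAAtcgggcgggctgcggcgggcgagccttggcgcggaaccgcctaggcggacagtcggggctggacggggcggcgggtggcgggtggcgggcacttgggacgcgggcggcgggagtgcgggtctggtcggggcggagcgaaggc
The Cenpf window held 1 CHR word and 2 CCAAT boxes, that of Top2a 2 and 6, and that of Mki67 2 and 3. Left in lower case are 2 CCAAT boxes in the Mcm6 window and 1 E2F word in that of Mki67.

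Windows were found for 30 of the 37 genes. An E2F word stood in 9 of 12 windows of replication genes (75%) and in 3 of 16 of mitotic genes (18.8%), against 9.6% of all 32851 windows and 12.1% of the windows of protein-coding genes. The CHR word had the opposite distribution. It stood in 11 of 16 mitotic windows (68.8%) and in 1 of 12 replication windows (8.3%), that of Mcm2, against 17.9% of all windows. CCAAT boxes were in 14 of 16 mitotic and 9 of 12 replication windows, against 37.4% of all. Every mitotic window with a CHR word also held a CCAAT box, a combination present in 7.0% of all windows. The windows of E2f1 and Ccne1 held none of these words. The RefSeq start was 466 bases from the outermost GENCODE M21 start for E2f1, 539 for Mcm7 and 350 for Cdc6, so these 3 windows lie inside the genes as GENCODE draws them, and it was within 134 bases for the others. A match describes the letters of the window and says nothing of binding in these hearts.

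**Figure D2:**
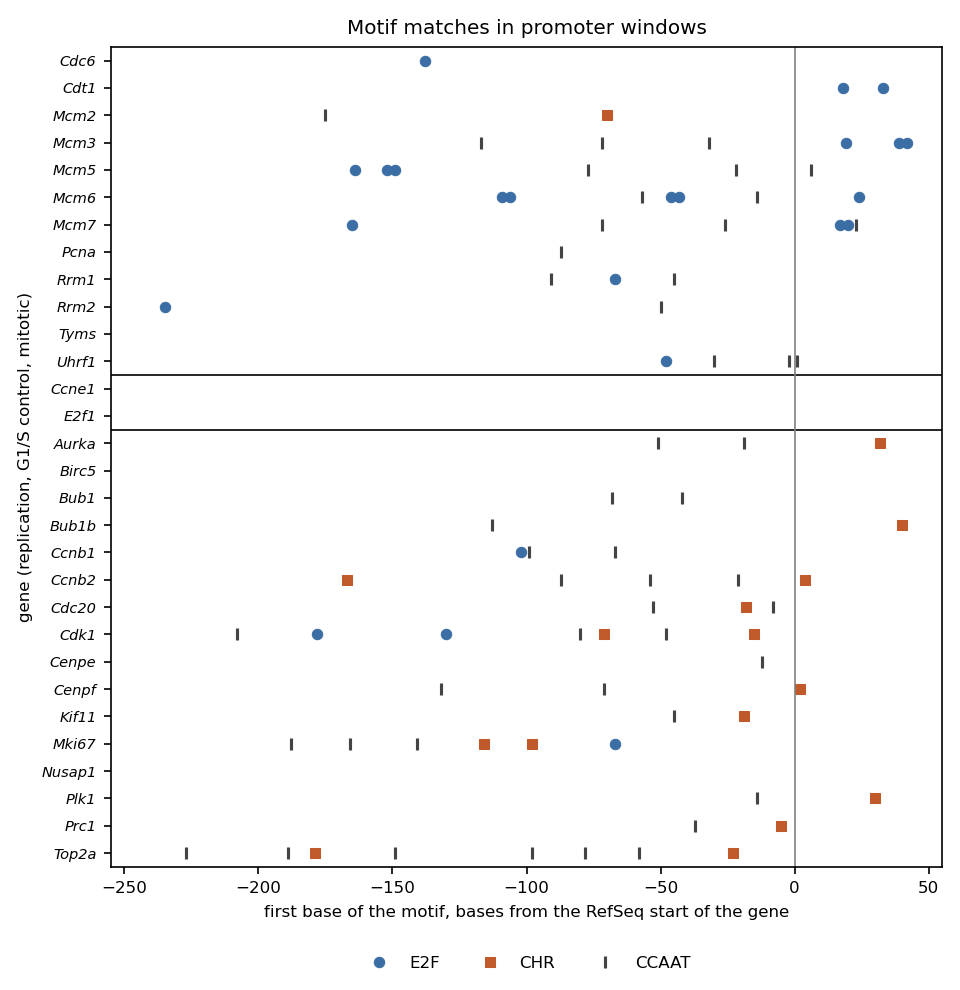
Position of each motif match (x axis, bases from the RefSeq gene start at 0) in the 30 promoter windows, one row per gene, in blocks of replication, G1/S control and mitotic genes. Blue E2F matches lie mostly in the top block, with 9 of 12 windows, and orange CHR squares in the bottom block, with 11 of 16.

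Among the genes that load and form the replicative helicase, Mcm6 had the lowest value of the tested genes. Mcm6 (ENSMUSG00000026355, chr1:128331590-128359664, minus strand, GRCm38) encodes a subunit of the Mcm ring. It read 108, 115, 59.9 and 80.1 normalized counts in wild-type mice against 37.03, 57.8, 48.0 and 55.1 in knockouts. Each knockout library was below each wild-type library, although wild-type replicate 3 lay close to knockout replicate 2. The means were 90.6 ± 25.3 and 49.5 ± 9.27 (SD, n = 4 each), a log2 fold change of −0.86 (SE 0.20, adjusted p = 0.0649 in edgeR), that is 44.9% lower. Without wild-type replicate 3, the adjusted p was 0.0200, and over all alternatives it ran from 0.00164 to 0.227.

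The subunit Mcm3 differed by less, with little spread in wild-type and more in knockout. Its wild-type libraries read 117, 111, 112 and 113 and its knockout libraries 88.5, 82.6, 106 and 104. The groups did not overlap, and the log2 fold change was −0.25 (SE 0.12, adjusted p = 0.380, edgeR). The other subunits had overlapping groups. Mcm5, Mcm2 and Mcm7 were at −0.31, −0.19 and −0.19, and Mcm4 was at 0.01 with a 95% interval from −0.21 to 0.23. Mcm4 turned to −0.068 when wild-type replicate 2 was left out and to −0.032 when knockout replicate 4 was. All 6 subunits act in the same ring, with Mcm6 at one end of their range and Mcm4 at the other, and differences between the genes were not tested.

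The loading factors Cdc6 and Cdt1, which bring the ring onto origins, were at −0.21 and −0.23 with standard errors of 0.37 and 0.29. Gins2, a subunit of the complex that activates the helicase, was too low to test. Its normalized counts were 14.5, 14.7, 9.31 and 14.1 in wild-type mice against 9.66, 8.94, 2.09 and 9.36 in knockouts (two-sided exact permutation test of CPM, p = 0.0857, where 0.0286 is the smallest p the design allows). Knockout replicates 1 and 4 lay just above the lowest wild-type library. In the annotation, 64.1% of the 100-base stretches in Gins2 exons are found in some other gene. Gse1, a gene on the opposite strand, shares the most. Whether the counting used strand is not stated, so the counts of Gins2 are uncertain.

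At the replication fork the DNA clamp was level, while the nucleotide enzymes had negative estimates that did not pass the test. Pcna encodes the sliding clamp that holds polymerases on DNA. It read 474, 440, 434 and 466 in wild-type mice against 448, 422, 458 and 468 in knockouts. The groups overlapped throughout, with means of 453 ± 19.7 and 449 ± 19.8 and a log2 fold change of −0.02 (95% interval −0.15 to 0.11). Of the stretches of Pcna exons, 10.1% are found in some other gene, with a processed pseudogene, Pcna-ps2, sharing the most. Rrm1 and Rrm2, the subunits of ribonucleotide reductase, were at −0.20 (SE 0.09, unadjusted p = 0.0420, adjusted p = 0.357, edgeR) and −0.16 (SE 0.23), and Tyms, thymidylate synthase, at −0.30 (SE 0.17).

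Uhrf1, which guides maintenance of DNA methylation behind the fork, had the lowest estimate of this group. It read 76.3, 81.4, 42.6 and 48.7 in wild-type mice against 33.8, 38.5, 55.3 and 26.0 in knockouts. Knockout replicate 3 lay above wild-type replicates 3 and 4. The log2 fold change was −0.72 (SE 0.25, adjusted p = 0.227, edgeR).

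**Figure D3:**
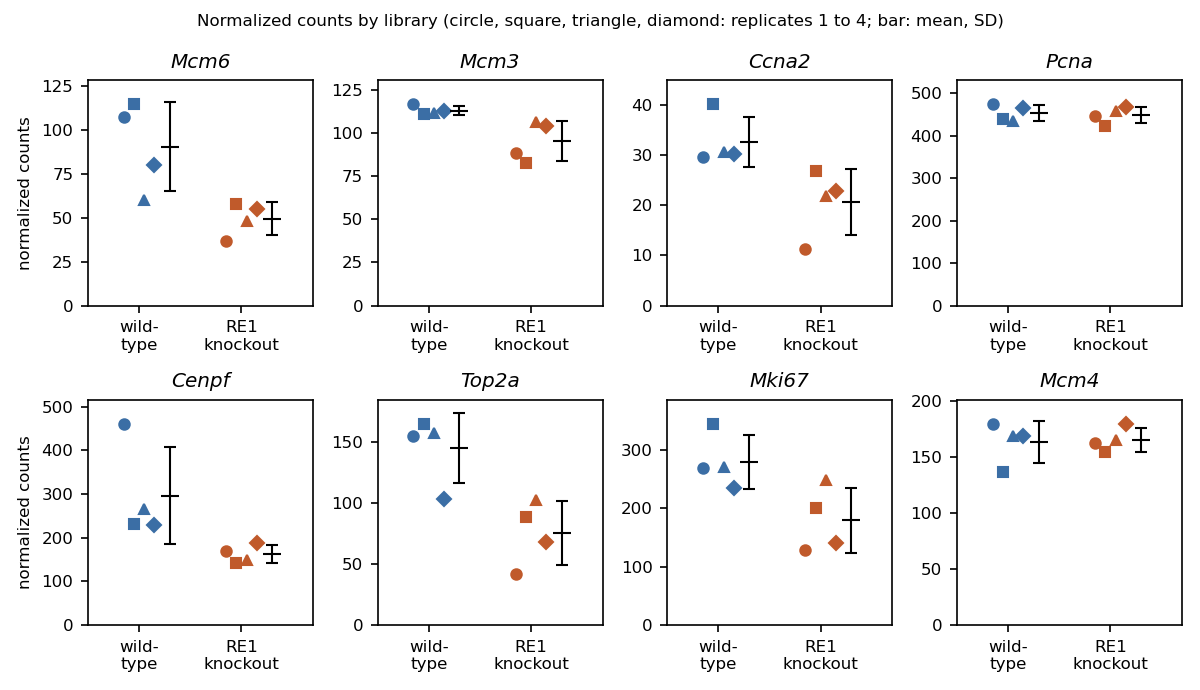
Normalized counts (y axis, from 0) of 8 genes in each library, with the mean and SD beside each group of 4. The groups do not overlap for Mcm6, Mcm3, Ccna2, Cenpf and Top2a, they overlap for Mki67 through knockout replicate 3, and Pcna and Mcm4 are level.

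The regulators of the G1/S step gave no common direction. E2f1, an activating E2F factor, was at −0.40 (SE 0.39) with wild-type libraries from 3.99 to 25.9 normalized counts around knockout libraries from 10.4 to 17.7. Ccne1, a cyclin that activates Cdk2 at S-phase entry, was at −0.51 (SE 0.39). Its close relative Ccne2 was at 0.11 (SE 0.13), with groups of 64.1 to 81.2 and 72.8 to 88.5. None of them reached an unadjusted p of 0.05, the smallest adjusted p being 0.625 in edgeR. Of the stretches of Ccne2 exons, 11.4% are found in some other gene, with Ints8 sharing the most.

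The cyclins that drive S phase, G2 and mitosis, with their kinase Cdk1, were all measured lower. Ccna2, cyclin A2, read 29.7, 40.2, 30.6 and 30.3 in wild-type mice against 11.3, 26.8, 21.9 and 22.9 in knockouts. The groups did not overlap. This amounted to a log2 fold change of −0.59 (SE 0.24, adjusted p = 0.322, edgeR). Of the stretches of Ccna2 exons, 10.2% are found in some other gene, with Exosc9 sharing the most. Ccnb1, cyclin B1, was lower still at −0.81 (SE 0.38, adjusted p = 0.377, edgeR), on mean normalized counts of 13.4 ± 3.62 and 7.18 ± 3.76 (SD, n = 4 each). Of its stretches, 14.9% are found in some other gene, with its pseudogene Ccnb1-ps sharing the most. Cdk1 overlapped widely, at −0.39 (SE 0.38), with wild-type libraries of 13.3 to 32.8 and knockout libraries of 4.83 to 28.2. The untested Ccnb2, cyclin B2, read 9.92, 15.7, 13.3 and 9.75 in wild-type mice against 8.05, 7.57, 19.8 and 3.12 in knockouts (exact permutation p = 0.514). Its highest and lowest libraries were both knockout.

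Kinases and checkpoint proteins of mitosis had low counts and wide errors. Of the 7, 5 were tested and 0 reached an unadjusted p of 0.05. Cdc20, which activates the anaphase-promoting complex, was nearest at −0.50 (SE 0.25, adjusted p = 0.426, edgeR), reading 21.4, 26.5, 22.6 and 18.4 in wild-type mice against 12.9, 17.2, 19.8 and 11.4 in knockouts. Knockout replicate 3 lay above the lowest wild-type library. The checkpoint kinase-like protein Bub1b, the centrosome kinase Aurka and Birc5, a subunit of the chromosomal passenger complex, were at −0.49, −0.40 and −0.31, with standard errors of 0.33, 0.34 and 0.32. Aurkb, the kinase of that same complex, was at 0.18 with an interval from −0.75 to 1.10. It turned to −0.41 without knockout replicate 2.

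The remaining pair was left to the permutation test. Bub1, a checkpoint kinase at kinetochores, read 19.1, 22.6, 10.6 and 8.66 in wild-type mice against 1.61, 4.13, 20.9 and 3.12 in knockouts (exact permutation p = 0.200). Of the knockout libraries 3 lay below each wild-type library and replicate 3 lay among the highest. Plk1, the polo-like kinase, had nearly equal means of 9.37 ± 2.52 and 9.32 ± 7.34 (SD, n = 4 each), with knockout libraries on either side of the wild-type range (exact permutation p = 1.0).

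Genes for spindle, kinetochore and chromosome proteins included 3 of the 4 with the smallest p-values. All 9 were tested, all 9 log2 fold changes were negative with a median of −0.40, and 4 were at an unadjusted p under 0.05. At that level 7.01% of all tested genes were lower. Cenpf (ENSMUSG00000026605, chr1:189640606-189688086, minus strand) encodes a large kinetochore protein. It read 461, 231, 265 and 230 in wild-type mice against 169, 143, 149 and 188 in knockouts. The groups did not overlap, and wild-type replicate 1 was far above the other libraries. The log2 fold change was −0.91 (SE 0.20, adjusted p = 0.0547, edgeR), 46.6% lower. Without wild-type replicate 1 it was −0.58 (SE 0.11, adjusted p = 0.0644), and without wild-type replicates 2, 3 or 4 the adjusted p was 0.0448, 0.0497 and 0.0247. These were the only 3 of 8 omissions that gave a call. Over all alternatives the adjusted p of Cenpf ran from 1e-05 to 0.283. The authors' deposited table gives Cenpf an adjusted p of 0.0303, where it calls 1.09% of 14259 genes lower. In the authors' deposited table Mcm6 (adjusted p = 0.0552), Top2a (0.180) and Mki67 (0.445) are not called.

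Top2a, the topoisomerase that untangles replicated chromosomes, read 155, 165, 157 and 103 in wild-type mice against 41.9, 88.8, 102 and 67.6 in knockouts. Knockout replicate 3 came just under wild-type replicate 4, so the groups did not overlap. This gave a log2 fold change of −0.90 (SE 0.20, adjusted p = 0.0579, edgeR), 46.3% lower. Its adjusted p was 0.0193 when wild-type replicate 4 was left out and 0.0421 when knockout replicate 3 was. These were the only 2 of 8 omissions that gave a call. Over all alternatives the adjusted p of Top2a ran from 0.00018 to 0.196.

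Mki67, whose product Ki-67 coats mitotic chromosomes and is widely used to mark cycling cells, read 269, 345, 271 and 235 in wild-type mice against 129, 201, 248 and 140 in knockouts. Knockout replicate 3 exceeded wild-type replicate 4, and the other knockout libraries lay below all wild-type libraries. The log2 fold change was −0.62 (SE 0.17, adjusted p = 0.114, edgeR), 34.7% lower. Without knockout replicate 3 the adjusted p was 0.0421, the only 1 of 8 omissions that gave a call. Over all alternatives the adjusted p of Mki67 ran from 0.00116 to 0.273.

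The spindle assembly factor Tpx2 was at −0.70 (SE 0.25, adjusted p = 0.227, edgeR). Kif11, the motor that pushes spindle poles apart, Nusap1, a microtubule bundler, the kinetochore motor Cenpe and Prc1, the organizer of the central spindle, were at −0.40, −0.40, −0.37 and −0.37, with standard errors of 0.22, 0.26, 0.26 and 0.25. Single libraries moved them, Prc1 to −0.082 and Kif11 to −0.22 with wild-type replicate 2 left out, and Cenpe to −0.18 with knockout replicate 4 left out. Kif20a, a motor of cytokinesis, was level at −0.01 (95% interval −0.39 to 0.36). Of the stretches of its exons, 21.4% are found in some other gene, with Cdc23 sharing the most.

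The knockout libraries also differed among themselves. The mean log2 CPM of the 20 mitotic genes was 0.43, 0.66, 0.18 and 0.25 in the wild-type mice, against −0.46, 0.09, 0.24 and −0.41 in the knockouts. Knockout replicates 1 and 4 were far below all wild-type libraries, whereas knockout replicate 3 lay above wild-type replicate 3. The overlap depended on the measure. Over the 17 tested mitotic genes, knockout replicate 2 (0.385) also lay above wild-type replicate 3 (0.380). In summed CPM of the 20 genes the groups did not overlap, at 37.1 to 50.8 in wild-type and 23.8 to 35.1 in knockout. For the 14 replication genes the means were 1.65, 1.58, 1.38 and 1.5 in wild-type mice against 1.05, 1.32, 1.20 and 1.27 in knockouts, with no overlap. Knockout replicate 1 held the lowest value of the 8 libraries for 14 of the 37 genes and knockout replicate 4 for 9. Wild-type replicate 2 held the highest for 16 and wild-type replicate 1 for 10. Knockout replicate 1 was also the library with the fewest reads.

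**Figure D4:**
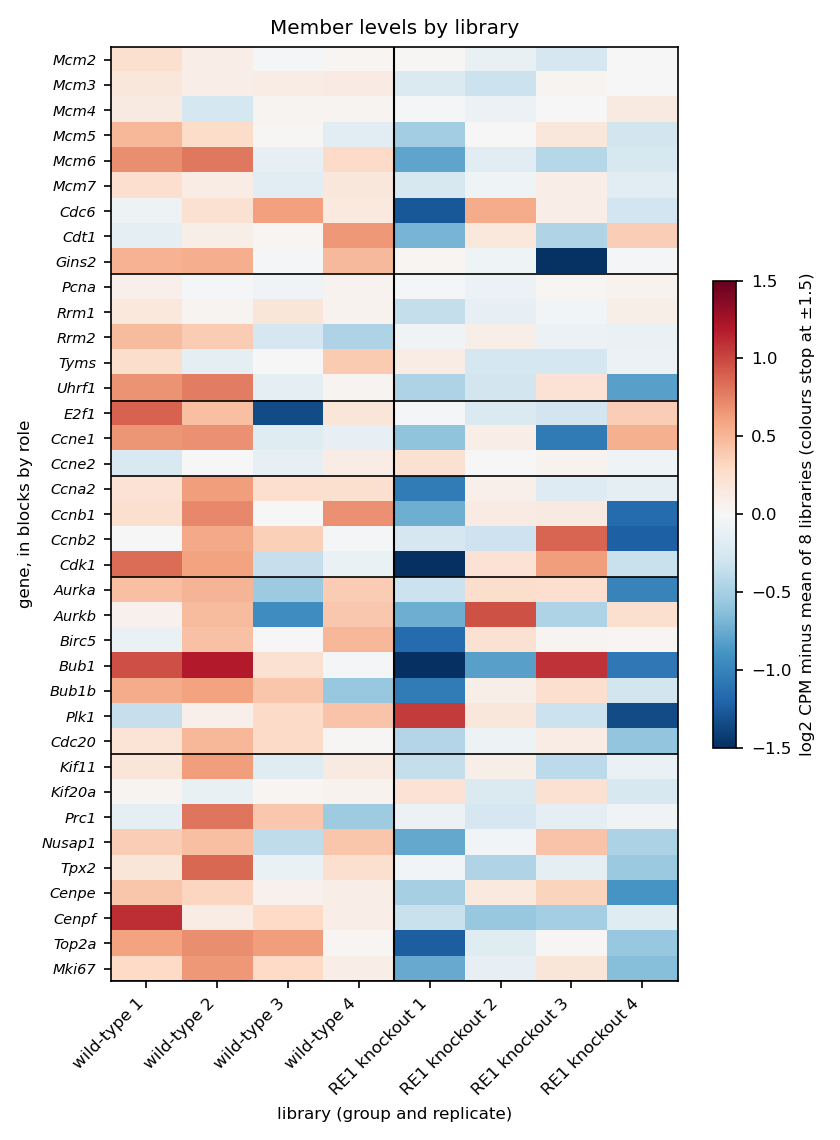
Log2 CPM of the 37 genes (rows, in blocks by role) in each of the 8 libraries (columns), as the difference from the gene's mean over the libraries. Blue, below the mean, is densest in the mitotic blocks of knockout replicates 1 and 4, while knockout replicate 3 is mixed.

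The most abundant of the mitotic genes also varied more between mice of a group than other genes of like level. The biological coefficient of variation, edgeR's estimate of spread beyond counting, was 18.1% for Cenpf, 17.8% for Top2a and 16.0% for Mki67, where the trend at their level was 7.88%, 9.87% and 7.89%. Mcm6 was at 16.2% against 11.5%. Pcna and Mcm4 lay under their trends, at 5.26% against 7.06% and 7.598% against 8.65%. The estimate exceeded the trend for 12 of 17 tested mitotic genes and 6 of 13 tested replication genes, against 32.0% of all tested genes.

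Compared per length, these transcripts were scarce. In wild-type, Pcna led at 7.17 ± 0.316 RPKM (SD, n = 4), that is, reads scaled to exon length and library total. It was followed by Mcm4 at 1.73 ± 0.197, Mcm7 at 1.55 ± 0.186, Mcm3 at 1.14 ± 0.0264 and Mki67 at 1.06 ± 0.176. Mcm4 and Mcm7, and likewise Mcm3 and Mki67, did not differ beyond their spread. All other genes were below 1 RPKM, down to Cdc6 at 0.0941. The median level was 0.631 RPKM for the replication genes and 0.268 for the mitotic genes.

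Further genes of the same pathways were read from 4 lists outside the 37. Of 44 other replication genes 41 were tested, 28 were negative with a median of −0.10, and 0 were called in edgeR, with 4 at an unadjusted p under 0.05, all lower, where 7.01% of all tested genes were, so that this share is near the background. The groups did not overlap for 3 of the 41 genes in the lower direction and for 1 in the higher, beside 3.83% and 3.32% of all tested genes. Orc1, a subunit of the origin recognition complex, read 25.9, 26.5, 14.6 and 14.1 in wild-type mice against 6.44, 5.51, 10.4 and 6.24 in knockouts. The groups did not overlap, and the log2 fold change was −1.55 (SE 0.34, adjusted p = 0.0538 in edgeR, 0.0416 in its robust form). Lig1, the ligase that joins Okazaki fragments, was at −0.57 (SE 0.18, adjusted p = 0.168).

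Of 52 other mitosis genes 37 were tested and 32 were negative, with a median of −0.31. Again 0 were called, with 8 at an unadjusted p under 0.05, all lower, beside the 7.01% of all tested genes. Dlgap5, a spindle microtubule protein, was lowest at −1.34 (SE 0.35, adjusted p = 0.0918, edgeR). Iqgap3, a scaffold protein linked to proliferation, was at −0.86 (SE 0.26, adjusted p = 0.145).

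A call was made in each of the lists of regulators. Among 21 tested activators of the cycle, 16 negative with a median of −0.17, Ccnd1 fell. Ccnd1, cyclin D1, partners Cdk4 and Cdk6 in G1. It read 928, 938, 858 and 761 in wild-type mice against 538, 628, 672 and 517 in knockouts. All knockout libraries were below all wild-type libraries, at means of 871 ± 81.4 and 589 ± 73.7 (SD, n = 4 each). On the log2 scale the difference was −0.56 (SE 0.09, adjusted p = 0.0102, edgeR), 32.3% lower, and the call held with each library left out in turn. It was lost with the share of mitochondrial rRNA as a covariate (−0.54, adjusted p = 0.0720). The authors' deposited table gives Ccnd1 an adjusted p of 0.000982. Of the stretches of Ccnd1 exons, 19.6% are found in some other gene. LTO1, which overlaps these exons on the opposite strand, shares the most.

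Among 21 tested inhibitors, 12 negative with a median of −0.03, Cdkn1a rose. Cdkn1a encodes p21, which blocks cyclin-dependent kinases and binds Pcna. It read 45, 79.5, 65.2 and 123 in wild-type mice against 167, 151, 158 and 154 in knockouts. The knockout libraries were alike and all above the more scattered wild-type libraries. The log2 fold change was 1.03 (SE 0.21, adjusted p = 0.0403, edgeR), 2.03-fold higher. The call depended on the samples, being kept without wild-type replicate 4 (adjusted p = 0.00133) and lost without any other library, with adjusted p from 0.0607 without knockout replicate 4 to 0.117 without knockout replicate 2. It was also lost in the robust fit (0.0780) and with the covariate for mitochondrial rRNA (0.168). Of 16 alternatives, 7 called Cdkn1a, and over all of them its adjusted p ran from 1.97e-05 to 0.168. The authors' deposited table gives Cdkn1a an adjusted p of 0.000981.

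**Figure D5:**
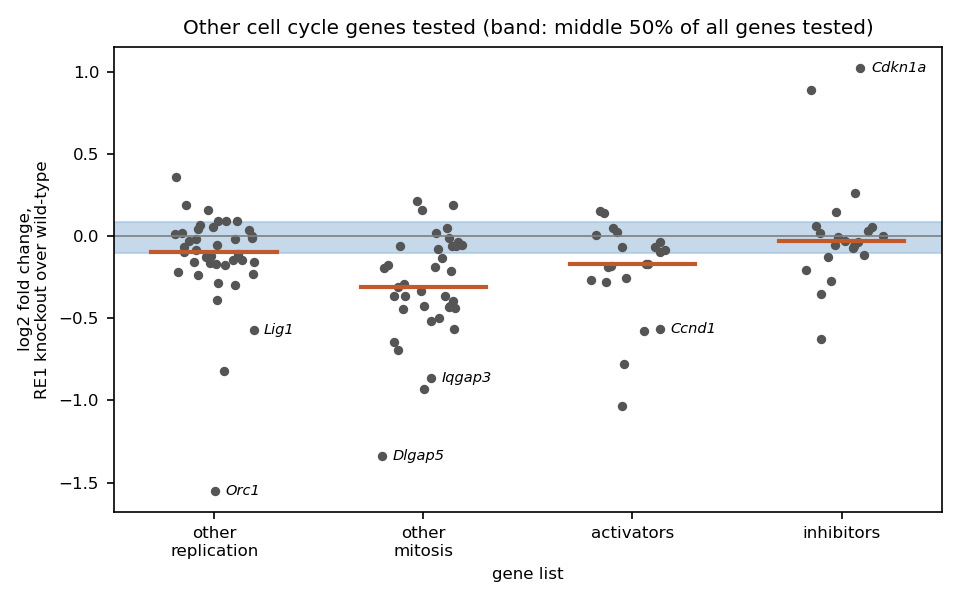
Log2 fold change (y axis, RE1 knockout over wild-type) of the tested genes in 4 further lists of cell cycle genes, with the median of each list as a bar and the middle 50% of all tested genes as a band. The other mitosis genes have the lowest median, −0.31, and Cdkn1a, at 1.03, and Ccnd1, at −0.56, are the genes that passed the threshold.

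Among other measures, the summed CPM of fibroblast markers and of circadian clock genes did not overlap between the groups. The other marker sums overlapped. Cardiomyocyte markers summed to 43000 to 46810 CPM in wild-type and 43940 to 47610 in knockout. The 6 endothelial markers summed to 760 to 825 CPM in wild-type and 668 to 781 in knockout, with 5 of 6 negative and Cav1 called lower, and knockout replicates 1 and 3 were the lowest. The 6 fibroblast markers were all positive, at 1317 to 1459 and 1533 to 1635 CPM, with Pdgfra and Gsn called higher. Macrophage markers overlapped at 98.3 to 130 and 103 to 117 CPM, and erythroid markers at 1498 to 2195 and 1711 to 3017. Mesothelial markers were scarce, at 3.95 to 14.8 and 9.61 to 28.0 CPM, with 6 of 6 positive, a median log2 fold change of 1.89, 5 of 6 at an unadjusted p under 0.05 and 0 called in edgeR. At that unadjusted p, 6.14% of all tested genes were higher. Lymphoid and neutrophil markers stayed at or below 1.68 CPM in sum, with Ly6g at 0 in all 8 libraries, Camp at 0 in 7, Retnlg and Ngp at 0 in 4, and 5 of 6 lymphoid markers at 0 in 1 or 2. Of 16 circadian clock genes, 8 were called lower and 3 higher, beside 0.508% and 0.278% of all tested genes. The summed CPM of the clock genes was 420 to 584 for wild-type libraries against 319 to 385 for knockout libraries. Mitochondrial rRNA took 8.51% to 10.5% of counts in wild-type and 6.19% to 9.40% in knockout. The part of these measures in the values of the cell cycle genes was not tested beyond the covariate for mitochondrial rRNA.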

How the data were processed

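Left ventricles of 4 wild-type and 4 RE1 knockout mice were compared. Per the labels' protocols, a stranded total RNA kit was used on 900 ng of RNA, with paired-end reads of 125 bases. STAR, DESeq2 and mm10 are named per the submitters' processing notes, without versions. Sources used here do not state which program counted reads, with which strand setting or annotation.

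The authors deposited raw counts per gene and normalized counts, a signal equal to the counts divided by 1 size factor per library. They also deposited a table with log2 fold changes and p-values, in which wild-type stands over knockout, so the sign was turned here.

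edgeR 4.0.16 (R 4.3.3) was run on the raw counts with TMM scaling, filterByExpr, a design of group alone and its quasi-likelihood F test. Its two-sided p-values were adjusted after Benjamini and Hochberg over 16551 genes, and a gene was called at 0.05 or less. A standard error is the size of the log2 fold change divided by the root of F. Log2 CPM used a prior count of 2, and intervals of fold changes are at 95%. Genes below the filter were compared by exact permutation of CPM over the 70 assignments of libraries. RPKM used merged exons of GENCODE M21 (GRCm38, the assembly of mm10). Shared stretches are 100-base stretches of exons found in another gene on either strand. Symbols came from the deposited file for 21807 IDs and from GENCODE for 18584, and 737 IDs had none. Promoter windows are from RefSeq (GRCm38.p6). The edgeR step was tested on simulated data.

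The genes, lists and tests were chosen with earlier results of these data known. All 37 genes were named, with Nppa and Nppb and, from each further list, every gene past the threshold or otherwise the 2 with the smallest p. Alternatives were DESeq2 1.42.0, limma-voom (limma 3.58.1), other size factors, filters and thresholds, a covariate for mitochondrial rRNA, the replicate number as a block and leaving out each library. The robust edgeR fit was added after both forms had been seen. Between libraries of the same group the mean chi-square per gene was 3.09 to 16.4, above counting noise. No library was taken as a duplicate, and each counted as 1 sample. Knockout replicates 1 and 3 (3.09) and replicates 2 and 4 (3.60) were closest, and the other knockout pairs lay between 14.3 and 16.4. Mitochondrial rRNA took 9.40% and 9.01% of counts in knockout replicates 1 and 3, against 6.40% and 6.19% in replicates 2 and 4. The cause of this split was not tested. The labels name the mice as littermates without saying which share a litter.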

Additional observations from a re-analysis of the deposited data

Results flagged for a closer look

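Single libraries stood far from the other 3 of their group in 10 of 94 groups of 4 looked at. The rule flags about 1 in 20 groups when values are independent and normally distributed. Several of these counts are low and the genes share the same libraries, so that rate cannot show whether 10 is an excess. Each value here is a normalized count. Cenpf read 461 in wild-type replicate 1, against 230 to 265 in the other wild-type libraries. Top2a read 103 in wild-type replicate 4, against 155 to 165. Ccna2 read 40.2 in wild-type replicate 2, against 29.7 to 30.6. Kif20a was lowest in wild-type replicate 2 at 43.2, against 47.9 to 48.7.

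Wild-type replicate 3 was the low library for 3 genes. Nusap1 read 27.9 there, against 48.1 to 51.0, Aurka read 9.31, against 19.5 to 21.6, and Gins2 read 9.31, against 14.1 to 14.7. In the knockout group, replicate 3 was low for Gins2 at 2.09, against 8.94 to 9.66, and high for Bub1 at 20.9, against 1.61 to 4.13. Dlgap5 read 1.61 in knockout replicate 1, against 6.24 to 6.88 in the other knockout libraries. The cause of these values was not tested.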

How the results depend on the processing

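The test called 130 of 16551 genes across the genome (0.785%), 0 of the 37 cell cycle genes and 2 genes of the further lists. Without a low-count filter these counts were 546 of 28347, 4 (Mcm6, Cenpf, Top2a, Mki67) and 6. With DESeq2 they were 287 of 16256, 3 (Mcm6, Top2a, Mki67) and 4. At an adjusted p of 0.1 they were 338, 3 and 6, and with the share of mitochondrial rRNA as a covariate 62, 0 and 0. The robust edgeR fit, added after seeing the data, called 176 genes and 1 of the 37, Mcm6. Leaving out each library gave 21 to 241 genes across the genome, 0 to 2 of the 37 and 1 to 4 of the further lists.

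Same-numbered libraries of the 2 groups did not deviate together over the tested genes, with correlations of −0.01, 0.02, −0.08 and −0.06. The main fit did not pair them. These values cannot show whether such libraries share a litter or a batch. With the replicate number as a block, 146 genes were called, and 3 of the 37, Cenpf, Top2a and Mki67.

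The medians kept their direction in each alternative run. Leaving out libraries gave −0.49 to −0.30 for the tested members, −0.26 to −0.18 for replication and −0.63 to −0.35 for mitosis. Signs turned in genes close to 0. Aurkb ran from −0.41 to 0.37 over the fits that leave out a library, Kif20a from −0.11 to 0.073, Mcm4 from −0.068 to 0.067, Pcna from −0.041 to 0.012 and Rrm2 from −0.31 to 0.020. With the covariate, Aurkb was −1.04 and Kif20a 0.28. The cause was not tested. With under 10 reads in some library, 16 of the 37 genes are limited by depth.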

Other observations

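Further regulators of proliferation missed the threshold with fold changes as large as those of the genes described. They were chosen after their values were seen. Mycn, a Myc-family transcription factor that drives growth of the embryonic heart, read 156, 140, 106 and 148 normalized counts in wild-type mice against 62.8, 64.0, 111 and 34.3 in knockouts, with knockout replicate 3 above the lowest wild-type library. Its log2 fold change was −1.03 (SE 0.24, adjusted p = 0.0610, edgeR), while DESeq2 and limma-voom called it lower. Mycn was called in 5 of 16 alternatives, with an adjusted p of up to 0.341, and is not called in the authors' deposited table (0.182). Btg2, an antiproliferative gene, read 516, 428, 821 and 765 in wild-type mice against 992, 1073, 858 and 1722 in knockouts, with no overlap, at 0.89 (SE 0.21, adjusted p = 0.0653, edgeR). The authors' deposited table does not call Btg2 either (0.122). Other genes of the list of inhibitors, in which 12 of 21 tested were negative, went the opposite way. Wee1 was at −0.62 (SE 0.23, adjusted p = 0.251, edgeR). E2f7 was at −0.35 (SE 0.18, adjusted p = 0.429, edgeR), lower in knockout with no overlap.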
